A study of Homo sapiens with 6 samples.

Results

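The 50 genes described here encode the machinery of mitosis, the step of the cell cycle in which duplicated chromosomes are pulled apart and the cell divides. They were listed by symbol for their role in mitosis, and the array carried all 50 of them among its 23593 named genes. Of these, 45 had the listed symbol as their name in the files, with CDK1 there as CDC2 and DLGAP5 as DLG7, and NDC80, NUF2, SPC25, NCAPG and NCAPH were found under older names through their gene identifiers. Where the array held several features for a gene, the brightest on average was taken. By role, 14 genes are kinases, cyclins and other regulators of mitotic entry, 8 act on the spindle, 15 on the kinetochore and its checkpoint, and 13 on chromosome separation, mitotic exit and cytokinesis.

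The samples were total RNA of HCC-LM3, an established human hepatocarcinoma line with a high tendency to metastasise. Cultures were infected for a week with a lentivirus that carried either an shRNA against ASPP2, the product of TP53BP2, or a control shRNA, so that both groups had been infected. The groups, called shASPP2 and shNon, had 3 samples each from separate cultures, and each sample was hybridised to its own 1-colour array. The labels give neither the sequence nor the number of shRNAs, nor how infected cells were selected.

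Transcripts of these genes accumulate in G2 and M phase and are low in cells that have left the cycle. Their promoters are held silent outside that window by the DREAM complex and switched on by B-MYB and FOXM1, which use the same MuvB core bound at a short element, the cell cycle homology region (CHR), often beside CCAAT boxes read by NF-Y. The cell cycle inhibitor p21 lowers them through DREAM, and the comparison bears on whether the set differed when ASPP2 was depleted.

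The promoters of 4 members are shown because these 4 had the smallest p-values of the set, and because each of them holds both elements. The sequences are RefSeq's (GRCh38.p14), each from 110 bases before to 30 bases after the annotated start, on the plus strand, which is the coding strand for all 4 genes. Capitals mark the CHR, TTTGAA or its reverse complement TTCAAA, and the CCAAT box or its reverse complement ATTGG.
INCENP, chr11:62123901-62124040: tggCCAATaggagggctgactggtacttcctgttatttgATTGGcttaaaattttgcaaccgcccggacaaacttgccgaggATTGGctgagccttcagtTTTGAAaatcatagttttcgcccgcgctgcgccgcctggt
KIF11, chr10:92593020-92593159: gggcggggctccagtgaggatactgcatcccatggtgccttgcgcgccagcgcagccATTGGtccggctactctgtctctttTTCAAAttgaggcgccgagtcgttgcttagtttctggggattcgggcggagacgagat
NUSAP1, chr15:41332771-41332910: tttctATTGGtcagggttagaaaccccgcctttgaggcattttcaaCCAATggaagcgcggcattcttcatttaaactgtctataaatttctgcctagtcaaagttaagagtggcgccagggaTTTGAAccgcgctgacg
CDC20, chr1:43358871-43359010: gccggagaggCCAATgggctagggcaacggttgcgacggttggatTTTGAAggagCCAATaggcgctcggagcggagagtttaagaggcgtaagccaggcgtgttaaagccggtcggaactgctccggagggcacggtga

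Promoter windows of 300 bases, from 250 before to 50 after the start, were given for 42 of the 50 members, 54 windows in all, since some genes have several starts. AURKA, BIRC5, BUB3, FOXM1, PBK, TPX2, TTK and UBE2C were not matched. The CHR, searched as TTTGAA on both strands, was in 59.3% of the members' windows against 15.2% of all 35116 windows in the table. CCAAT, searched on both strands, was in 70.4% against 34.6%, and both elements were in 46.3% against 5.9%. An E2F site, searched as TTTGGCGC or TTTCCCGC on both strands, was in 5.56% of the members' windows and 2.27% of all windows. No motif searched contains another, although neighbouring matches can share bases at their ends, as CCAAT and ATTGG do within CCAATTGG of PTTG1. Of 41 CHR matches 29 began within 60 bases of the start, with a median position of -23, whereas 51 of 70 CCAAT matches began 30 to 130 bases before it. Windows of one gene can overlap, so that a site can be counted more than once.

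**Figure D1:**
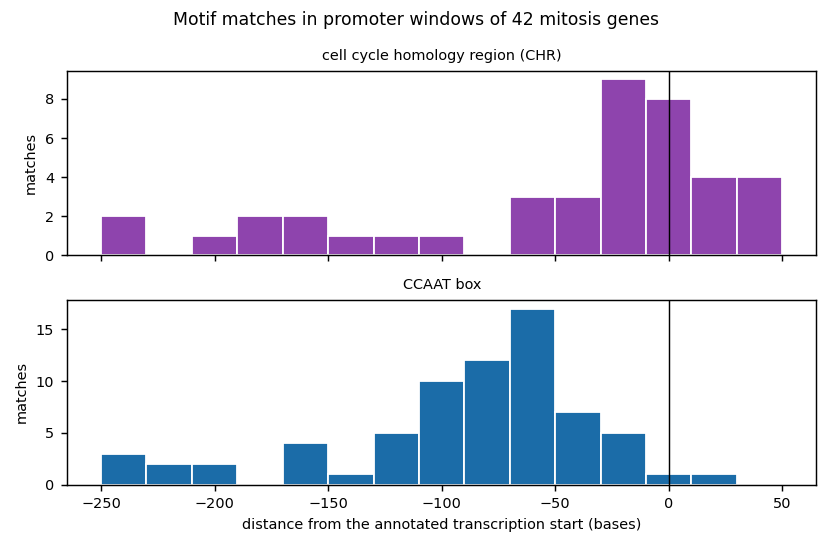
Positions of matches to the CHR (top) and the CCAAT box (bottom) in promoter windows of 42 mitosis genes, as the number of matches in bins along the distance in bases from the annotated transcription start at 0. CHR matches gather at the start, with 29 of 41 within 60 bases of it, and 51 of 70 CCAAT matches begin 30 to 130 bases before it.

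A few measurements on the arrays as a whole come first. The arrays had median intensities from 111.3 to 122.2, and random-sequence probes, which match no transcript, gave 32.6 ± 0.752 in shNon and 30.6 ± 0.170 in shASPP2 (SD, n = 3). The target, TP53BP2, had intensities of 332, 488 and 452 in shNon and 228, 216 and 147 in shASPP2, a ratio of geometric means of 46.2%, and all shASPP2 arrays were below all shNon arrays. Its log2 fold change was -1.11 (SE 0.249, limma adjusted p = 0.204, and 0.0256 with limma's trend and robust options). The shNon arrays varied more than the shASPP2 arrays, with a median SD over all genes of 0.31 log2 against 0.23. Of 12 hepatocyte markers, 5 lay above 2 times the random-probe level in at least one group, with HNF4A and TF the brightest, and APOA1, APOA2, APOB, APOC3, AHSG, SERPINA1 and TTR did not. Of 13 fibroblast, endothelial and leukocyte markers 7 did, with CD68 and PECAM1 the brightest. The others were the fibroblast genes LUM, DCN, COL3A1 and COL1A1, and CDH5, which did so in shNon only. LUM was at 5.63 times the random-probe level in shNon and 8.23 times in shASPP2. ACTA2, COL1A2 and VWF did not, nor did the leukocyte genes PTPRC, CD3E and CD14. PECAM1 was at 1866 ± 84.7 in shNon and 968 ± 134 in shASPP2 (SD, n = 3, limma adjusted p = 0.157, and 0.00125 with the trend and robust options), and its part in the results was not tested.

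The mitosis genes were strongly expressed in both groups. All 50 lay above 2 times the random-probe level, their median intensity was 2328, and the median member stood at percentile 88.8 of all genes by mean log2 intensity. The dimmest was SPC25, a subunit of the NDC80 complex, at percentile 57.8, and the brightest was CDC25B, a phosphatase that activates CDK1, at percentile 99.8. Levels of different genes are probe signals and are not compared per transcript.

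No member passed the test. The smallest adjusted p over all genes was 0.252 in limma, for INCENP, while 0.102% of all genes passed the threshold of 0.05, 0.0593% as lower. Before adjustment, 4 members of 50, or 8.0%, had a p under 0.05, against 11.5% of all genes. KIF11 and NUSAP1 were lower in shASPP2, where 5.93% of all genes were lower at that p, and INCENP and CDC20 were higher, where 5.54% were. With a variance that follows the level, described further on, the order of the shares of members and all genes turned, to 24.0% against 13.0%. No member differed by 2-fold, and in 48 of 50 the 95% interval lay within 2-fold in either direction, as it did for 63.2% of all genes and for 83.8% of the 9954 genes at least as bright as the dimmest member. The exceptions were INCENP and CDC20, whose intervals reached 1.21 and 1.03 log2. In RNA of whole cultures, fewer cells in mitosis and less of a transcript per mitotic cell cannot be told apart.

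The members leaned to lower values in shASPP2 by a small amount. Log2 fold changes were below 0 in 37 of 50 members, or 74.0%, against 49.3% of all genes, and their median was -0.10 against 0.01 for all genes. The range ran from -0.56 for KIF11 to 0.75 for INCENP, and the quartiles were -0.32 and 0.01. The medians by role were -0.05 for kinases and entry regulators, -0.25 for the spindle, -0.08 for the kinetochore and -0.24 for exit, with 8 of 14, 8 of 8, 10 of 15 and 11 of 13 members below 0. These counts and medians are descriptions, and differences between the roles were not tested. Groups did not overlap in 7 members that were lower (KIF11, NUSAP1, CENPF, CDCA8, NCAPG, TOP2A and KIF23), or 14.0%, against 9.52% of all genes and 13.6% of the 9954 genes at least as bright as the dimmest member. They did not overlap either in 4 that were higher (INCENP, PLK1, CDCA3 and CENPE), or 8.0%, against 9.3%. The share among the genes at least as bright as the dimmest member was 13.5%. In either direction the groups did not overlap in 11 members, or 22.0%, in 18.8% of all genes and in 27.1% of those 9954 genes. Their median intensity was 1102, against 2328 for the members, so they were not matched for brightness.

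**Figure D2:**
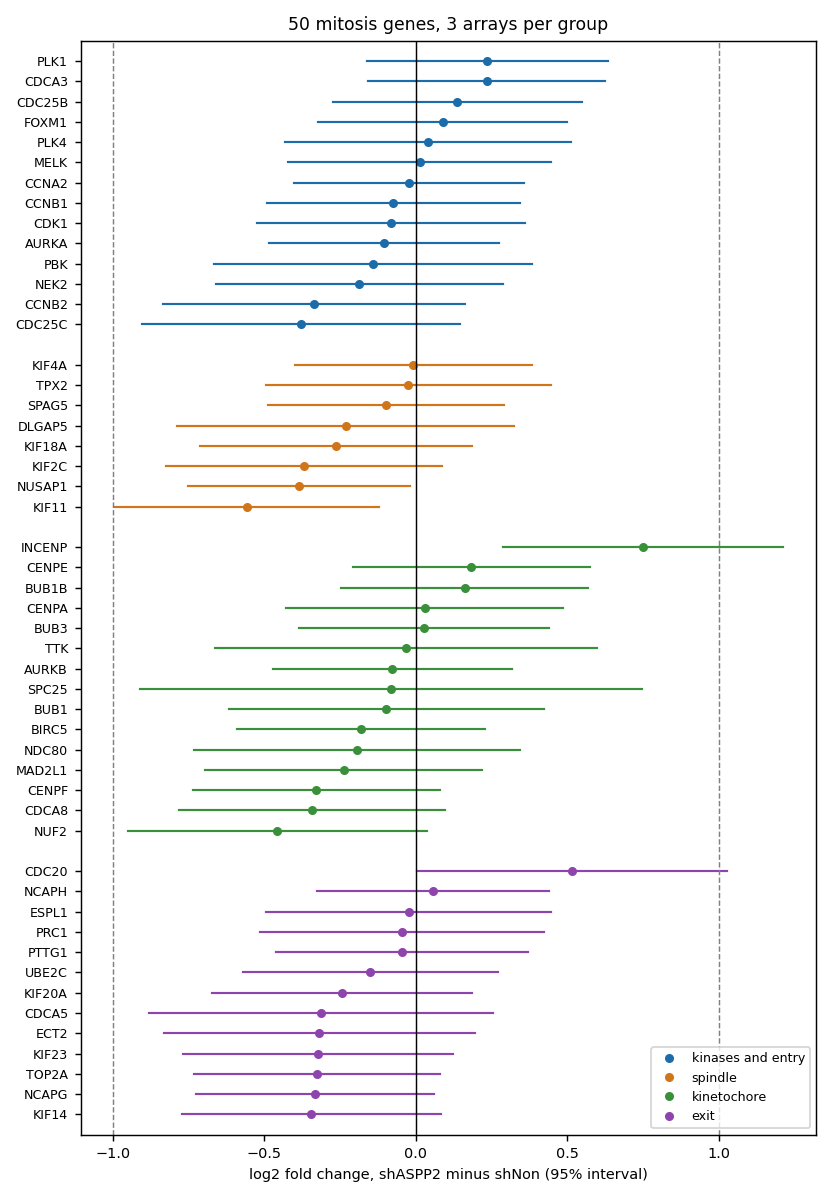
Log2 fold change of each of the 50 mitosis genes, shASPP2 minus shNon, with limma's 95% interval as a horizontal line, grouped by role and ordered within a role. Dashed lines mark a 2-fold difference. All 8 spindle genes lie below 0, and the intervals of all genes but INCENP, KIF11, NUSAP1 and CDC20 include 0.

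The lean was not the same on every array. The median deviation of the 50 members from each gene's own mean over the 6 arrays was 0.02, -0.02 and 0.17 log2 on shNon arrays 1, 2 and 3, and -0.02, -0.06 and -0.12 on the shASPP2 arrays. The shNon array 3 stood apart as the high array, and shNon array 2 and shASPP2 array 1 were level. Of the 50 members 22, or 44.0%, had their highest value on shNon array 3, against 26.0% of all genes, and for all genes the median deviation of that array was 0.03. Without shNon array 3 the members' median log2 fold change was -0.06 and 30 of 50 were below 0. Without shNon array 1 it was -0.17 and without shNon array 2 it was -0.15. The kinase median changed sign without shNon array 3, to 0.02, and the spindle, kinetochore and exit medians went to -0.11, -0.03 and -0.13. The kinetochore median was -0.14 without shNon array 1 and -0.16 without shNon array 2 or shASPP2 array 1.

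**Figure D3:**
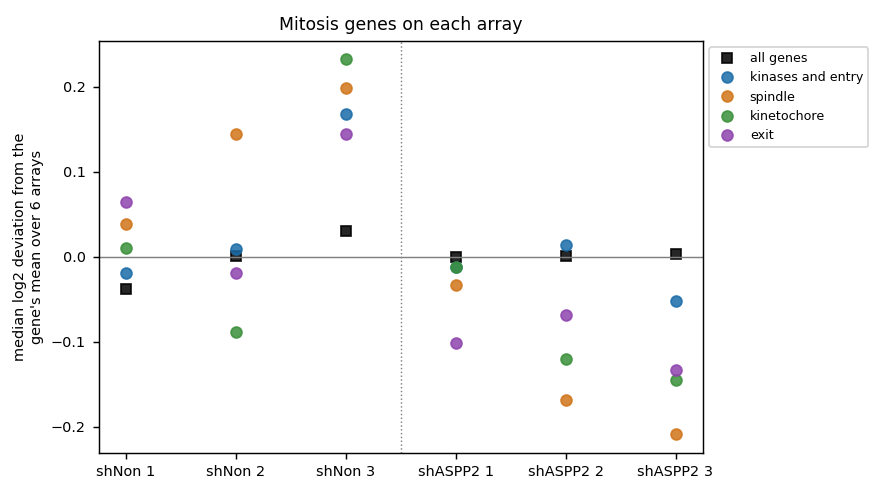
Median deviation in log2 of the mitosis genes of each role (coloured points) and of all genes (black squares) from each gene's own mean over 6 arrays, by array. The 4 roles lie between 0.14 and 0.23 on shNon array 3, and the spindle genes are the lowest on shASPP2 array 3 at -0.21.

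Among the kinases and regulators of entry none had an unadjusted p under 0.05 on the feature used. PLK1, the polo-like kinase that drives entry and spindle assembly, had intensities of 5349, 6629 and 6242 in shNon and 7164, 7283 and 6931 in shASPP2. All 3 shASPP2 arrays were above all 3 shNon arrays, by a log2 fold change of 0.24 (SE 0.169, limma adjusted p = 0.628). The other PLK1 feature, at 5441 ± 594 in shNon and 7684 ± 613 in shASPP2 (SD, n = 3), had a larger value of 0.50 (limma unadjusted p 0.0243, adjusted p = 0.363). CDCA3, an adaptor that leads to the breakdown of the entry inhibitor WEE1, went from 2100, 1987 and 1879 to 2114, 2503 and 2409. Its groups did not overlap either, although shASPP2 array 1 was level with shNon array 1 (0.23, SE 0.166, adjusted p = 0.627).

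CDC25C, a phosphatase that switches on CDK1, had the lowest value of the group at -0.38 (SE 0.223, limma adjusted p = 0.563). Its intensities were 499, 614 and 571 in shNon and 399, 561 and 355 in shASPP2, so that shASPP2 array 2 lay among the controls. CCNB2, a B-type cyclin, had 1963, 1319 and 1830 in shNon and 1481, 1285 and 1237 in shASPP2 (-0.34, SE 0.211), and shNon array 2 was level with the shASPP2 arrays. The other B-type cyclin, CCNB1, was at -0.07 (95% interval -0.49 to 0.34), the A-type cyclin CCNA2 at -0.02 (-0.40 to 0.36), and CDK1 itself at -0.08 (-0.53 to 0.36). NEK2, a centrosome kinase, had 1354, 1578 and 1925 in shNon and 1259, 1569 and 1413 in shASPP2, with overlap (-0.19, SE 0.201).

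The transcription factor FOXM1 had intensities of 7820, 10014 and 8530 in shNon and 8948, 9108 and 9852 in shASPP2. The groups overlapped and the log2 fold change was 0.09 (SE 0.175, 95% interval -0.32 to 0.50). CDC25B, the brightest member, had 18517, 21977 and 19465 against 20341, 21086 and 24554 (0.14, SE 0.174). The spindle pole kinase AURKA was at -0.10, PBK at -0.14 and MELK, a kinase of dividing cells, at 0.01. PLK4, which starts centriole duplication, was at 0.04 on the feature used and at -0.48 on its other feature. That other feature went from 675 ± 92.9 to 481 ± 23.6 (limma unadjusted p 0.02985, adjusted p = 0.385), so the features disagreed.

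All 8 spindle genes had a log2 fold change below 0. KIF11, the motor that pushes spindle poles apart, had intensities of 1393, 1409 and 1478 in shNon and 1117, 1007 and 809 in shASPP2. The 3 shNon arrays were close together and all shASPP2 arrays were lower, by 0.56 log2 (log2 fold change -0.56, SE 0.185, 95% interval -0.995 to -0.121). Its unadjusted p was 0.0193 in limma and its adjusted p over all genes 0.347. NUSAP1, which bundles microtubules near chromosomes, had 4617, 4788 and 4964 against 3766, 3658 and 3582, again without overlap (-0.38, SE 0.155, unadjusted p 0.0421, limma adjusted p = 0.415).

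The depolymerising motor KIF2C had 1898, 1901 and 1587 in shNon and 1229, 1660 and 1306 in shASPP2, with shASPP2 array 2 above shNon array 3 (-0.37, SE 0.194). KIF18A, which damps chromosome movement at the metaphase plate, went from 1153, 1340 and 1619 to 1219, 1094 and 1086 with overlap (-0.26, SE 0.191). A further KIF18A feature had a value of 0.08. DLGAP5, a stabiliser of kinetochore fibres, had 945, 807 and 1349 against 982, 793 and 817, where shNon array 3 alone stood above the rest (-0.23, SE 0.236). TPX2, which activates AURKA on the spindle and was the brightest spindle gene, had 7419, 6330 and 7922 against 8338, 7131 and 5939 (-0.03, SE 0.200). Near 0 as well were KIF4A, a chromosome-bound motor, at -0.01, and SPAG5, a spindle pole protein, at -0.10.

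**Figure D4:**
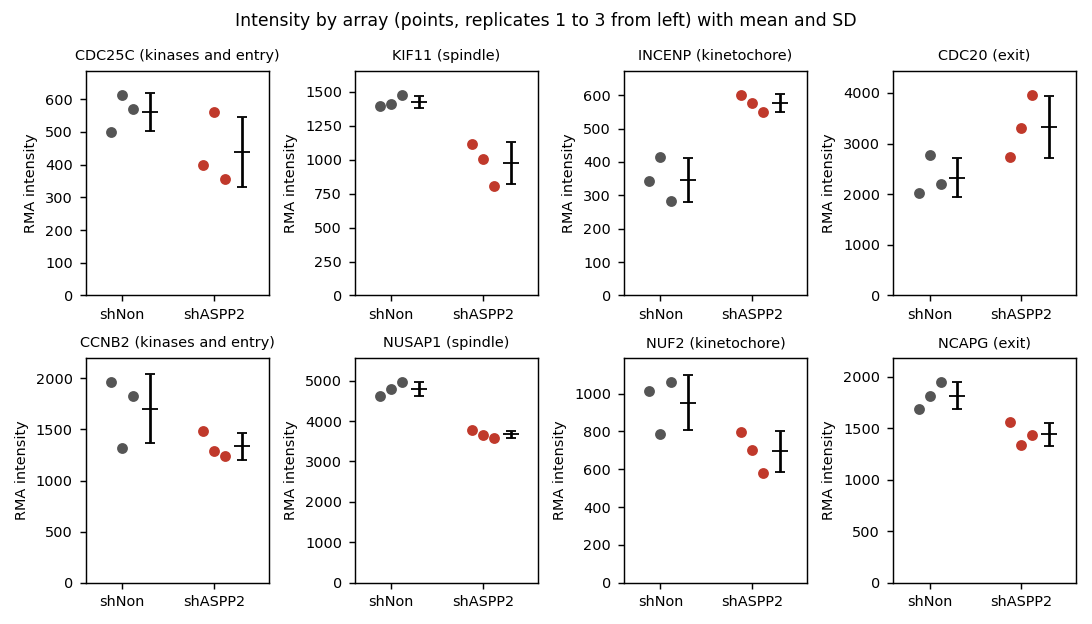
RMA intensity on each array (points, replicates 1 to 3 from left; grey shNon, red shASPP2) with the mean and SD of 3 arrays, for the pair of genes with the smallest p-values in each role. The vertical axes start at 0. The groups do not overlap for KIF11, NUSAP1, INCENP and NCAPG.

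The kinetochore genes held the member with the smallest p. INCENP, the scaffold of the chromosomal passenger complex, had intensities of 342, 415 and 283 in shNon and 602, 578 and 549 in shASPP2. All shASPP2 arrays lay above all shNon arrays, with a log2 fold change of 0.75 (SE 0.196, unadjusted p 0.00633, limma adjusted p = 0.252, between 0.0711 and 0.618 over the alternatives). Its other feature was at 0.48, from 131 ± 23.0 to 181 ± 9.79. The partners of INCENP in that complex had values below 0. The kinase AURKB had a log2 fold change of -0.08 and survivin, BIRC5, one of -0.18. Of the other BIRC5 features, a dim one, at 50.1 ± 18.3 in shNon and 69.1 ± 20.2 in shASPP2, was at 0.49. Borealin, CDCA8, had 4719, 4791 and 6337 in shNon and 3959, 4274 and 4156 in shASPP2, without overlap and with shNon array 3 high (-0.34, SE 0.186, limma adjusted p = 0.536). The other CDCA8 feature, at 3705 ± 282 and 3647 ± 451 (SD, n = 3), was at -0.028, so that the value rests on the choice of feature.

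NUF2, a subunit of the NDC80 complex that grips microtubules, had 1011, 785 and 1061 in shNon and 799, 702 and 581 in shASPP2. The shNon array 2 lay just under shASPP2 array 1, and the log2 fold change was -0.46 (SE 0.209, limma adjusted p = 0.470). NDC80 itself was at -0.19 and SPC25 at -0.08. The SPC25 value rests on shNon intensities of 164, 217 and 430, and its standard error of 0.352 was the largest of the set. CENPF, a large protein of the outer kinetochore and the brightest gene of this role, had 7258, 6045 and 7478 against 5886, 5220 and 5401, without overlap (-0.33, SE 0.173). Of the other centromere proteins, the histone variant CENPA was at 0.03 and the motor CENPE at 0.18, where the other CENPE feature gave -0.25.

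Genes of the spindle checkpoint, which delays anaphase until chromosomes are attached, did not pass the test either. MAD2L1, which forms part of the inhibitor of CDC20, had 2880, 2646 and 3741 in shNon and 2780, 2456 and 2545 in shASPP2, with shNon array 3 high (-0.24, SE 0.194). The checkpoint kinases TTK and BUB1 were at -0.03 and -0.10, and BUB1B and BUB3 at 0.16 and 0.03. Their 95% intervals all included 0, and that of BUB3 ran from -0.39 to 0.44.

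Among exit genes CDC20, the activator of the anaphase-promoting complex and target of the checkpoint, was the only one of its role at an unadjusted p under 0.05. It had 2022, 2771 and 2194 in shNon and 2740, 3302 and 3964 in shASPP2. The shASPP2 arrays were the higher group but shNon array 2 lay just above shASPP2 array 1, and the log2 fold change was 0.52 (SE 0.217, unadjusted p 0.0489, limma adjusted p = 0.433). UBE2C, the ubiquitin-conjugating enzyme of that complex and the brightest exit gene, had 11176, 12767 and 12402 against 9569, 10955 and 12372 (-0.15, SE 0.178). All 8 UBE2C features were below 0, between -0.25 and -0.09, but they measure one gene and are not independent. Securin, PTTG1, was at -0.05, and it has near-identical gene copies that the array may not separate. Separase, ESPL1, which cuts cohesin at anaphase, was at -0.02.

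Several genes of chromosome structure and cytokinesis lay close to -0.33. NCAPG, a condensin subunit, had 1688, 1808 and 1947 in shNon and 1559, 1333 and 1430 in shASPP2, without overlap (-0.33, SE 0.167). Its other feature was at -0.05. TOP2A, the topoisomerase that untangles sister chromosomes, had 7212, 7232 and 6059 against 5931, 5097 and 5315, also without overlap (-0.33, SE 0.173). KIF14, a motor of the midbody, had 2503, 2067 and 2625 against 2081, 1844 and 1730, with shNon array 2 just below shASPP2 array 1 (-0.34, SE 0.182).

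KIF23, the motor subunit of centralspindlin, had 7800, 7422 and 10243 in shNon and 7006, 6535 and 6629 in shASPP2 (-0.32, SE 0.189). Its groups did not overlap and shNon array 3 was far above the rest. The other cytokinesis genes were ECT2, the exchange factor for RhoA, at -0.32, KIF20A at -0.24 and PRC1, which crosslinks midzone microtubules, at -0.04. The other KIF20A feature, at 2177 ± 360 in shNon and 2169 ± 159 in shASPP2 (SD, n = 3), was at 0.0058, so that the KIF20A value rests on the choice of feature. CDCA5 or sororin, which protects cohesion, was at -0.31. NCAPH, a second condensin subunit, did not share the sign of NCAPG, at 0.06 (95% interval -0.33 to 0.44). For KIF14, TOP2A, NCAPG and KIF23 the limma adjusted p was between 0.500 and 0.562.

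The array held a second or further feature for 31 members, 44 in all. Of these, 33 were below 0 and 36 had the sign of the feature used, with log2 fold changes between -0.48 and 0.50 and a median of -0.11. None passed at feature level, where the smallest adjusted p was 0.363 in limma. The dimmest feature gave -0.15 for CCNB2, -0.08 for NEK2 and -0.10 for MAD2L1, each closer to 0 than the feature used. Some other features lay further from 0 than the feature used, with -0.33 for a further MAD2L1 feature, -0.41 for KIF23 and -0.36 for ECT2. The features of one gene share their RNA and labelling, so this is no independent count.

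The choice of variance model moved the number of members at an unadjusted p under 0.05, with the fold changes unchanged. With a variance that follows the level (trend and robust options of limma), 10 members were lower and 2 higher at that p, against 6.64% and 6.36% of all genes. Together they are 24.0% of the members, against 13.0% of all genes and 21.3% of the genes at least as bright as the dimmest member. The 10 were KIF11, NUSAP1, CENPF, TOP2A, CDCA8, NUF2, KIF23, KIF14, KIF2C and NCAPG, and the 2 were INCENP and CDC20. None was past an adjusted p of 0.05 there either, with 0.0711 for INCENP and 0.0794 for KIF11 the smallest, while 2.14% of all genes were. Leaving out 1 array gave 0 lower members in place of 2 when it was shASPP2 array 3. It gave 3, CCNB2, KIF11 and NUF2, when it was shNon array 2, and 2, CDC25C and KIF11, when it was shASPP2 array 2. It gave 1, KIF11, when it was either of the other shNon arrays or shASPP2 array 1. NUSAP1 was not under that p with any array left out. Over these fits 0.0% to 6.0% of the members and 3.62% to 6.59% of all genes were lower at that p. Of the higher members INCENP alone was left when shNon array 1, shNon array 3, shASPP2 array 2 or shASPP2 array 3 was taken out, where 3.52% to 6.03% of all genes were higher.

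**Figure D5:**
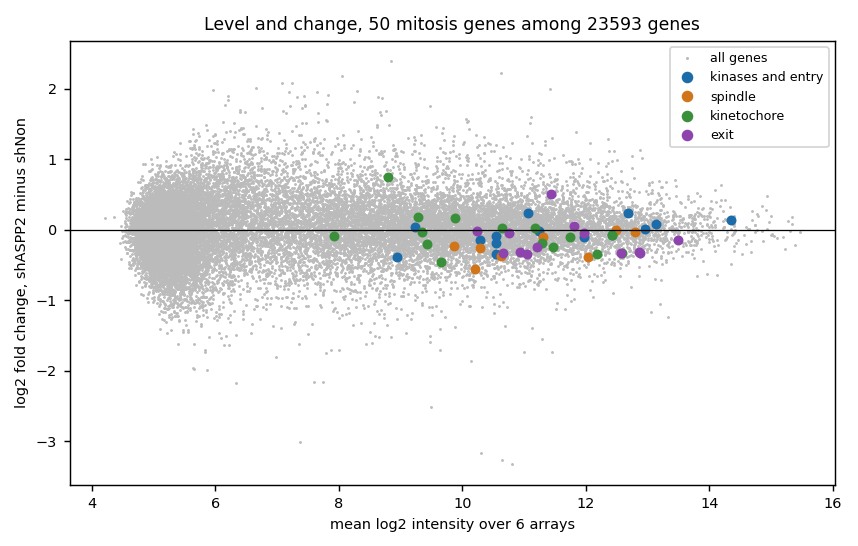
Log2 fold change, shASPP2 minus shNon, against mean log2 intensity over 6 arrays, for all 23593 genes (grey) and the 50 mitosis genes by role (colours). The mitosis genes lie in the brighter part of the range, all between -0.56 and 0.75.

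Other genes of mitosis showed a similar lean. In a list of 55 that excludes the 50 members, 40 were below 0, or 72.7%, against 49.3% of all genes. The median of the list was -0.16. None passed over all genes. At an unadjusted p under 0.05, 3 were lower and 1 higher, together 7.27%, against 11.5% of all genes. CIT, the citron kinase of the cleavage furrow, had 1106, 1189 and 1260 in shNon and 805, 730 and 747 in shASPP2 (-0.64, SE 0.161, limma adjusted p = 0.244, and 0.0346 with trend and robust variance). KIF15, a motor that backs up KIF11, was at -0.50 and FAM83D, a spindle protein, at 0.48. MKI67, which encodes the proliferation marker Ki-67, was at -0.32 (SE 0.160, limma adjusted p = 0.503), with 711, 754 and 725 in shNon against 563, 560 and 636 in shASPP2. The median of this list was -0.08 without shNon array 3, the array on which it too was highest, with a median deviation of 0.23.

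Lists of neighbouring steps had medians close to 0. For 30 subunits and regulators of the anaphase-promoting complex, cohesin and condensin the median was 0.03 with 14 below 0 (-0.03 without shNon array 1 and -0.0051 with median centring), and the smallest p-values belonged to FZR1 (1.15), WAPL (0.51) and ANAPC16 (-0.36). FZR1, the second activator of the complex, had shNon intensities of 65.3 ± 17.0 (SD, n = 3), only 2.01 times the random-probe level. For 35 genes of G1/S and replication the median was 0.02 with 15 below 0, and RFC4, PCNA and MCM5 were at -0.41, -0.32 and 0.32. No gene of these lists passed over all genes, and whether the lists differ from the mitosis genes was not tested.

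Of 23 regulators of mitotic transcription none passed over all genes, 9 were below 0 and the median was 0.07. CDKN1A, which encodes p21, had 793, 540 and 356 in shNon and 1154, 1375 and 1066 in shASPP2, without overlap (1.16, SE 0.304, limma adjusted p = 0.254, and 0.0190 with trend and robust variance). On the same arrays the members' median deviations were 0.02, -0.02 and 0.17 in shNon and -0.02, -0.06 and -0.12 in shASPP2. RBL1, the p107 subunit of DREAM, was at -0.53 and E2F1 at 0.47. MYBL2, which encodes B-MYB, had a log2 fold change of 0.01 (95% interval -0.45 to 0.47). The part of CDKN1A in the values of the mitosis genes was not tested.

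Members with and without TTTGAA, the only form of the CHR searched, in their promoter windows were set side by side. A member without that match was not shown to lack a CHR. For the 29 with a TTTGAA match the median log2 fold change was -0.23 and 22 were below 0. For the 13 without a TTTGAA match it was -0.07 and 9 were below 0. For CCAAT the order was the other way, with a median of -0.08 in the 33 members that have it and -0.19 in the 9 that do not. Both signs occurred among genes with both matches, such as KIF11 and INCENP, whose promoters are printed above. Neither difference was tested.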

How the data were processed

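Each deposited file lists linear intensities of the array's features, and the submitters' processing notes name RMA. Version and settings of RMA: not given in the sources used here. RMA as usually defined equalises arrays, which hides differences in total RNA, and it compresses dim features. The series' value table differed from these files in 0 cells. Of 45033 features, named by accession on hg18, 38916 took a symbol by gene identifier and 78 by accession from RefSeq (GRCh38.p14), 3954 kept the file's name and 2085 had none.

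The deposited intensities were turned into log2 values here, 1 feature for each of 23593 genes (the highest mean), and fitted on group with limma 3.58.1 (lmFit, eBayes; R 4.3.3), two-sided, Benjamini-Hochberg over all genes, threshold 0.05. Errors of intensities are SDs of 3 arrays and errors of fold changes are moderated standard errors. The number of arrays limits precision. The fit was also run on simulated data drawn from its own variance model, with equal spread in both groups. That run does not test the variance model. Named genes are the 5 members of each role with the smallest p and its brightest member, members whose features disagree in sign by over 0.3, the targeted gene, the 3 genes with the smallest p of each other list, and MKI67, CDKN1A and MYBL2, while 1 further gene of the rule is not reported here. Other members are named to account for them. Members and lists were chosen with earlier results of these data known. Alternatives were other normalizations, filters, variance models, feature choices, array weights, a replicate block and leaving out each array. No protein sequences were used here.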

Additional observations from a re-analysis of the deposited data

How the results depend on the processing

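No member passed an adjusted p of 0.05 in limma's fit or under any of 16 alternatives, where that of INCENP ranged from 0.0711 to 0.618. Of 416 values of 26 named members under the alternatives, 151 equalled the reported value, most of them because the alternative cannot move a fold change. Of the other 265, 254 kept their direction and 11 did not. The mean of all features of a gene gave log2 fold changes of 0.021 for BIRC5, -0.035 for CENPE and -0.22 for PLK4. The dimmest feature gave 0.079 for KIF18A, 0.49 for BIRC5, -0.25 for CENPE and -0.48 for PLK4. With single arrays left out, PLK4 lay between -0.076 and 0.15 and TPX2 between -0.14 and 0.10.

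The count of members lower at an unadjusted p under 0.05 was 10 with trend and robust variance, where 6.64% of all genes were lower. It was 4 without features under the median level and 1 with the replicate block. The count of higher ones was 1 with median centring, cyclic loess, array weights or the replicate block. For the settings other than trend and robust variance the share of all genes is not given here, and these counts are not read as a result about the members. With single arrays left out the counts were 0 to 3 lower (0.0% to 6.0% of the members) and 1 to 2 higher (2.0% to 4.0%). The shares of all genes were 3.62% to 6.59% and 3.52% to 6.57%. Members without overlap were then 8 to 17 lower (16.0% to 34.0% of the members) and 4 to 7 higher (8.0% to 14.0%). The shares of all genes were 12.6% to 16.0% and 12.7% to 16.2%. The exit median was -0.16 with the mean and -0.12 with the dimmest feature, and the median of mitotic gene control was 0.13 with the mean. Over single arrays left out the medians ran from -0.28 to -0.13 for exit, -0.30 to -0.11 for the spindle, 0.0057 to 0.11 for mitotic gene control and 0.013 to 0.096 for G1/S. Scaling moved the median of all genes by under 0.1 log2. The genes past the threshold were 84 and 247 without features under 2 times the random-probe level or under the median, 506 with trend and robust variance, 40 with the mean and 8 with the dimmest feature, 0 with the replicate block and 0 to 6 with single arrays left out. Deviations from the group means had correlations of 0.0760, -0.0975 and -0.136 for arrays of the same replicate number. For different numbers they ran from -0.110 to 0.176. With 3 arrays in each group these values do not decide whether the arrays were paired. The cause of these changes was not tested.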
